A study of Homo sapiens with 26 samples.

Results

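The 10 genes described here, BCR, ABL1, CRKL, GRB2, GAB2, STAT5A, STAT5B, PIM1, BCL2L1 and LYN, encode the partners of the BCR-ABL1 fusion and proteins that act below it. They were chosen by name for their place in this pathway, and each was found by its gene symbol among the 19478 coding sequences counted in all 4 deposited tables. The question was how many ribosome footprints each gene had in K562, a human chronic myeloid leukaemia line that carries BCR-ABL1, beside HEK293T and HEK293FT, human embryonic kidney lines that carry the SV40 large T antigen and serve here as lines without the fusion.

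The series comprised 26 ribosome profiling libraries, in which RNase I trims mRNA to the fragments held by ribosomes, and it was made to compare ways of removing ribosomal RNA. The HEK293T table held 2 undepleted libraries and 2 each with Ribo-Zero Gold, RiboCop and NEBNext (fragments labelled 15 to 35 nt), and the HEK293FT table held 1 undepleted library and 1 depleted with custom oligos (15 to 35 nt). For K562, the kit table (20 to 34 nt) had a pair of libraries for each of 4 treatments, which were no depletion, FastSelect, riboPools, and riboPools eluted cold. It also had 4 single Ribo-Zero Plus libraries, made plain, with oligos, with formaldehyde and with both. A further K562 table, called the size table here, held an undepleted and a NEBNext library for fragments of 20 to 34 nt and for 20 to 60 nt. No drug or genetic change was labelled for any line, and the labels do not say whether replicates came from separate cultures, so p-values may measure technical spread alone.

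BCR-ABL1 arises when a translocation joins the 5′ part of BCR to the 3′ part of ABL1, a tyrosine kinase, and the fusion kinase is active without its normal control. Its known substrates and partners include the adaptors GRB2, GAB2 and CRKL, which link it to RAS and PI3K signalling, the transcription factors STAT5A and STAT5B, and the SRC-family kinase LYN. PIM1, a serine/threonine kinase, and BCL2L1, which encodes the survival protein BCL-XL, are known STAT5 target genes in blood cells.

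The usual form of the fusion in K562 joins BCR exon 14 to ABL1 exon 2. These 2 exon ends are shown because a footprint can be assigned to the fusion only if it spans their joint, and the deposited counts are per coding sequence of each normal gene. They were read from the GENCODE release 29 transcripts on GRCh38, both on the plus strand, with the 6 bases next to the joint in capitals.
BCR exon 14, last 30 bases (chr22:23290384-23290413): actcagccactggatttaagcagaGTTCAA
ABL1 exon 2, first 30 bases (chr9:130854064-130854093): AAGCCCttcagcggccagtagcatctgact
The fusion of this form keeps 72.96% of the BCR coding sequence (2782 of 3813 nt) and 96.05% of that of ABL1 (3311 of 3447 nt). Reads of the fusion transcript therefore count toward both genes, and fused and normal transcripts cannot be told apart in these tables.

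A second pair of sequences bears on STAT5A and STAT5B, near-identical neighbours on chromosome 17. Their coding sequences share an unbroken run of 429 nt, at coding positions 564 to 992 in both. The stretch where the run begins is printed from coding position 556, with the shared bases in capitals.
STAT5A: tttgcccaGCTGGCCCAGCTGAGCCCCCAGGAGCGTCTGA
STAT5B: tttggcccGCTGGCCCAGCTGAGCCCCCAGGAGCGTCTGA
Of all windows of 28 nt, a typical footprint length, 30.83% in STAT5A and 31.11% in STAT5B occur in the other gene. Footprints from these windows cannot be assigned by sequence, and how the authors counted them is not given in the sources used here. For BCR, 13.21% of windows occur in BCR pseudogenes or related transcripts, and for GAB2 0.1999% occur in GAB4. ABL1, CRKL, GRB2, PIM1 and BCL2L1 had no window in common with another gene.

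Library totals ran from 46858 to 5795774 counts. The K562 markers fixed for the check (globin, erythroid transcription factor and other erythroid genes) summed to at least 5649 CPM (each count scaled to a library total of 1000000) in each of the 16 K562 libraries and to at most 392.9 CPM in the 10 HEK libraries. TFRC, which cycling cells of many kinds express, gave most of the HEK sum, with 182.5 to 373.0 CPM in HEK293T. GATA1, NFE2, HBG1, HBG2 and HBE1 had no count in any HEK library. The neuronal and kidney markers of HEK cells summed to at most 0.969 CPM in K562. Of the lymphoid markers, PTPRC, a pan-leukocyte gene, had 81.2 to 191.9 CPM in K562. The 3 Ribo-Zero Plus libraries with oligos or formaldehyde stood apart, with 116742 to 184722 counts and isolated zeros or high values for several genes described here, and the undepleted 20 to 60 nt K562 library was the shallowest. Both libraries titled undepleted in the size table also carry a label naming NEBNext, and were grouped by title.

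The main test compared the 7 undepleted libraries in 1 edgeR fit. Of the 5551 genes tested, 2461 differed between K562 (kit table) and HEK293T at an adjusted p under 0.05, which is 44.3%, and 22% were higher in K562. By the same test, 9 of the 10 genes could be tested, 7 were higher in K562 and none was lower. Against HEK293FT the 7 were again higher, where 60.7% of all genes were called and 29.3% were higher, and in the size table against HEK293T the count was also 7, with 15.9% of all genes higher. These counts are no evidence of their own: ABL1, STAT5A, STAT5B, PIM1, BCL2L1 and LYN reached the abundance filter (52.56 CPM) in K562 libraries only, so they could hardly pass it without differing, and the comparisons share libraries. Each table holds 1 line, so a difference between lines and one between experiments cannot be told apart. The undepleted K562 libraries of both tables give a measure of the difference between experiments: 16 of 5551 genes (0.288%) differed between them by edgeR and 11 by DESeq2. None of the 9 did by either tool, and none had an unadjusted p under 0.05. Footprint counts combine mRNA amount and translation, which cannot be told apart without RNA libraries.

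**Figure D1:**
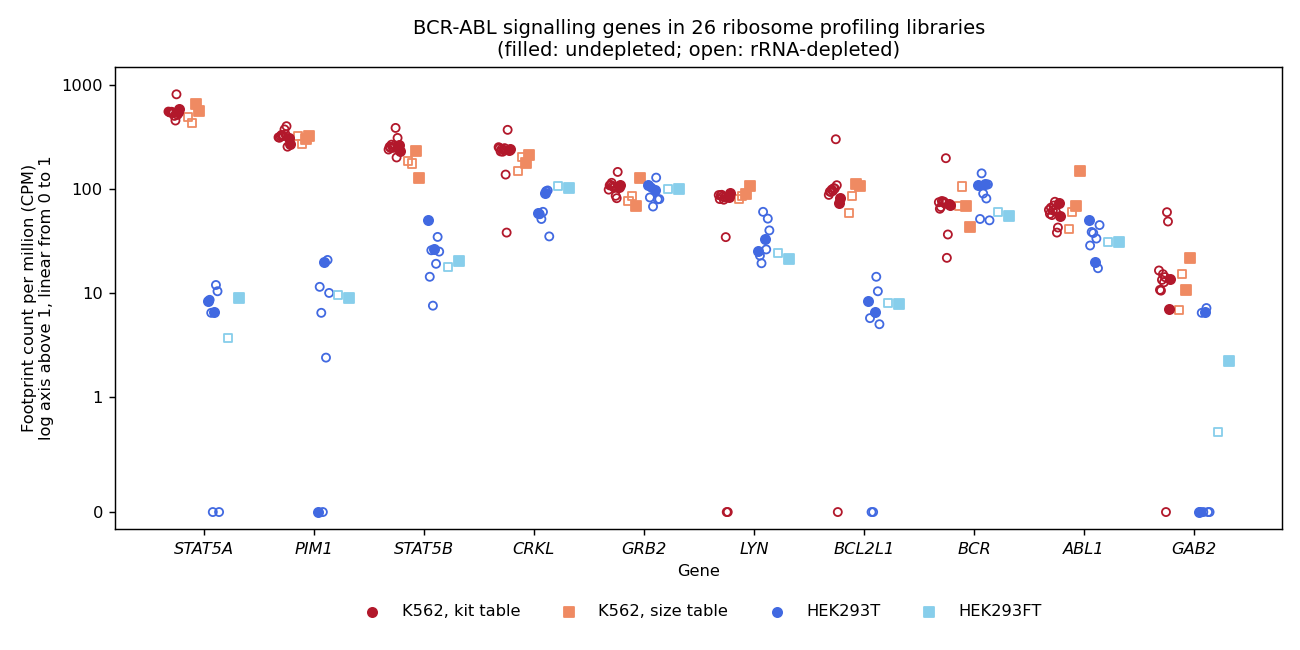
Footprint level (CPM) of each gene (x axis) in the 26 libraries (y axis, log scale above 1 and linear from 0 to 1), each point 1 library, filled where undepleted and open where depleted. STAT5A, PIM1 and STAT5B were higher in every K562 library than in every HEK library, while BCR and GRB2 overlapped.

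BCR is a signalling protein with a GTPase-activating domain, transcribed from chr22:23180210-23318037 (transcript ENST00000305877.12, 23 exons). Its level was 108 and 111 CPM in the undepleted HEK293T libraries and 54.4 CPM in HEK293FT. K562 had 71.3 and 69.8 CPM in the kit table and 68.3 and 42.7 CPM in the size table. The K562 values thus lay between those of the 2 kidney lines or below both. The log2 difference was -0.52 ± 0.31 (SE) against HEK293T (adjusted p 0.160) and 0.36 ± 0.24 against HEK293FT (adjusted p 0.191), so neither passed the test and their signs were opposite. Over all 8 HEK293T libraries BCR ranged from 49.7 to 141 CPM with a median of 99.2, and over all 16 K562 libraries from 21.7 to 197 CPM with a median of 70.6.

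ABL1, the tyrosine kinase that gives the fusion its activity, lies at chr9:130713946-130885683 (ENST00000372348.6, 11 exons). It had 6 and 3 counts in undepleted HEK293T, or 49.99 and 19.5 CPM, and 31.1 CPM in HEK293FT. In K562 it reached 72.2 and 55.2 CPM in the kit table and 68.3 and 149 CPM in the size table, the last from 7 counts in the shallowest library. All 4 K562 values were above the 3 of the HEK lines. ABL1 was higher in K562 than in HEK293FT by 1.02 ± 0.29 on the log2 scale, or 2.03-fold (adjusted p 0.000978), and than in HEK293T by 1.07 ± 0.46 (adjusted p 0.0454). The difference from HEK293T was 1.93 without HEK293T library 1 and 0.60 without library 2. In edgeR the call against HEK293T was lost with the size factors of DESeq2 (adjusted p 0.0618), total count scaling (0.0956) and no filter (0.0502). It was also lost with DESeq2 (adjusted p 0.246), without HEK293T library 2 and without K562 library 1 (log2 0.89). The call against HEK293FT was lost with DESeq2 (adjusted p 0.179). In the size table the difference from HEK293T was 1.45 ± 0.57 (adjusted p 0.0406), a call lost in 6 alternatives, among them leaving out either size-table library (adjusted p 0.0729 and 0.137).

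The deepest libraries gave the ABL1 ratio with less counting error. The 2 riboPools libraries with cold elution held 758 ABL1 counts among 11563274, and the HEK293FT library depleted with custom oligos held 176 among 5747772. Their ratio was 2.14, with an exact 95% interval of 1.81 to 2.54 for counting error. Under the same comparison BCR stood at 1.24 (1.09 to 1.41), an interval that lies apart from that of ABL1. Undepleted K562 of the kit table over undepleted HEK293FT gave 2.06 (1.37 to 3.22) for ABL1 and 1.30 (0.935 to 1.83) for BCR. These 2 intervals overlap. In the deepest libraries, here and below, depletion method, table and fragment size range differed along with the line. The intervals do not cover this.

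The balance of the fusion partners differed between undepleted K562 of the kit table and undepleted HEK293T. Against undepleted HEK293FT the intervals overlapped. ABL1 made up 47.6% of the ABL1 plus BCR counts in undepleted K562 of the kit table (139 of 292, exact 95% interval 41.8 to 53.5%) and 23.1% in undepleted HEK293T (9 of 39, 11.1 to 39.3%). In HEK293FT the share was 36.4% undepleted (28 of 77, 25.7 to 48.1%) and 33.7% with custom oligos (176 of 523, 29.6 to 37.9%). The K562 size table gave 57.1% undepleted (20 of 35, 39.4 to 73.7%) and 37.0% with NEBNext (30 of 81, 26.6 to 48.5%). In HEK293T the share was 38.9% with NEBNext (14 of 36, 23.1 to 56.5%), 31.6% with Ribo-Zero Gold and 16.9% with RiboCop. In the K562 kit table it was 46.5% with FastSelect, 45.5% with riboPools and 46.7% with cold-eluted riboPools. Single K562 libraries ranged from 23.3 to 77.8% and overlapped those of HEK293T (13.5 to 47.4%). Per kilobase of coding sequence, the levels of BCR and ABL1 were 18.5 ± 0.290 and 18.5 ± 3.48 CPM per kb (SD, n = 2) in undepleted K562 of the kit table, 14.6 ± 4.76 and 31.6 ± 16.6 in the size table, and 28.7 ± 0.456 and 10.1 ± 6.25 in HEK293T.

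Among the adaptors, CRKL, an SH2 and SH3 protein that the fusion kinase phosphorylates, passed the test and GRB2 did not, while GAB2 was too low to be tested. It lies on chromosome 22 at chr22:20917426-20953749 (ENST00000354336.7), 2226 kb before BCR. Undepleted HEK293T libraries had 58.3 and 91.2 CPM and HEK293FT had 102 CPM. K562 libraries had 234 and 244 CPM in the kit table and 179 and 213 CPM in the size table, all above the HEK values. CRKL was 3.36-fold higher than in HEK293T (log2 1.75 ± 0.27, adjusted p 2.06e-09) and 2.31-fold higher than in HEK293FT (1.21 ± 0.16, adjusted p 2.79e-13). With the libraries depleted without a nuclease added as replicates of their line, CRKL also differed between the kidney lines by edgeR. The difference was 0.58 ± 0.14 in favour of HEK293FT (adjusted p 0.000473), where 11.6% of 10356 genes were higher.

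GRB2, the adaptor that couples tyrosine kinases to SOS and RAS, lies on the minus strand at chr17:75318076-75405486 (ENST00000392562.5). It had 108 and 97.7 CPM in undepleted HEK293T, 98.8 CPM in HEK293FT, 103 and 109 CPM in K562 of the kit table, and 68.3 and 128 CPM in the size table. All of these overlapped. The log2 difference was 0.16 ± 0.29 against HEK293T (adjusted p 0.686) and 0.08 ± 0.19 against HEK293FT (adjusted p 0.734). In the deepest libraries the ratio of K562 to HEK293FT was 1.05, with an interval of 0.949 to 1.16, so a difference in counts above 1.16-fold lay outside the counting error there.

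GAB2, a docking protein that binds GRB2 and recruits PI3K and SHP2, is transcribed from the minus strand at chr11:78215297-78417806 (ENST00000361507.4). It was too low for the test. Counts were 0 and 1 in undepleted HEK293T, 2 in HEK293FT, 8 and 14 in K562 of the kit table, and 2 and 1 in the size table. In CPM the 4 K562 values (7.05 to 21.3) lay above the 3 HEK values (0 to 6.52), but single counts decide this order. The deepest libraries gave 13.8 CPM in K562 (160 counts) and 0.696 CPM in HEK293FT (4 counts), a ratio of 19.9 with an exact interval of 7.62 to 73.9. For comparison, undepleted K562 of the kit table over undepleted HEK293FT gave a ratio of 4.57 (22 and 2 counts), with an interval of 1.12 to 40.1. Over undepleted HEK293T the ratio was 2.78 with an interval of 0.449 to 115, in which no difference was detectable.

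STAT5A and STAT5B, which are phosphorylated by the fusion kinase and then enter the nucleus, were the transcription factors of the set. STAT5A lies at chr17:42287547-42311943 on the plus strand (ENST00000345506.8) and STAT5B at chr17:42199168-42276406 on the minus strand (ENST00000293328.7), so that their starts are 11.14 kb apart. STAT5A had 1 count in each undepleted HEK293T library (8.33 and 6.52 CPM) and 8 counts in HEK293FT (8.88 CPM). K562 had 618 and 599 counts in the kit table (544 and 580 CPM) and 125 and 26 counts in the size table (657 and 555 CPM). No HEK library of any kind exceeded 11.9 CPM and no K562 library fell below 426 CPM.

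The STAT5A ratio of summed counts, K562 of the kit table over HEK293T, was 76.8 with an exact 95% interval of 21.2 to 635 that reflects the 2 HEK293T counts. In the edgeR fit the log2 difference was 6.33 ± 0.39 (adjusted p 8.65e-57) against HEK293T and 5.93 ± 0.23 against HEK293FT (adjusted p 3.93e-143). In the deepest libraries, 6254 counts in K562 and 21 in HEK293FT gave a ratio of 148 (96.8 to 239). Undepleted K562 of the kit table over undepleted HEK293FT gave 63.2 (32.0 to 147). STAT5A had the largest difference of the 9 genes tested in each of the 3 comparisons of K562 with a kidney line.

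STAT5B was not as low in the kidney lines. It had 6 and 4 counts in undepleted HEK293T (49.99 and 26.1 CPM) and 18 in HEK293FT (20.0 CPM), with 267 and 232 CPM in K562 of the kit table and 231 and 128 CPM in the size table. The 4 K562 values were all above the 3 of the HEK lines. The difference was 7.35-fold against HEK293T (log2 2.88 ± 0.33, adjusted p 1.25e-16) and 12.2-fold against HEK293FT (3.61 ± 0.24, adjusted p 1.82e-49). In the size table it was 2.62 ± 0.44 on the log2 scale (adjusted p 4.67e-08), a call that the 20 to 60 nt library alone, with 6 counts, did not give (adjusted p 0.199).

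The proportion of the STAT5 genes was therefore not the same in the lines. STAT5A gave 69.2% of the STAT5A plus STAT5B counts in undepleted K562 of the kit table (1217 of 1759, exact 95% interval 67.0 to 71.3%) and 75.1% in the size table (151 of 201, 68.6 to 80.9%). It gave 16.7% in undepleted HEK293T (2 of 12, 2.09 to 48.4%), 30.8% in undepleted HEK293FT (8 of 26, 14.3 to 51.8%) and 17.2% in HEK293FT with custom oligos (21 of 122, 11.0 to 25.1%). Every K562 library (54.1 to 81.2%, median 68.6%, n = 16) lay above every HEK293T library (0 to 38.5%, median 20%, n = 8) and both of HEK293FT. The part of the shared run in these shares was not tested.

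**Figure D2:**
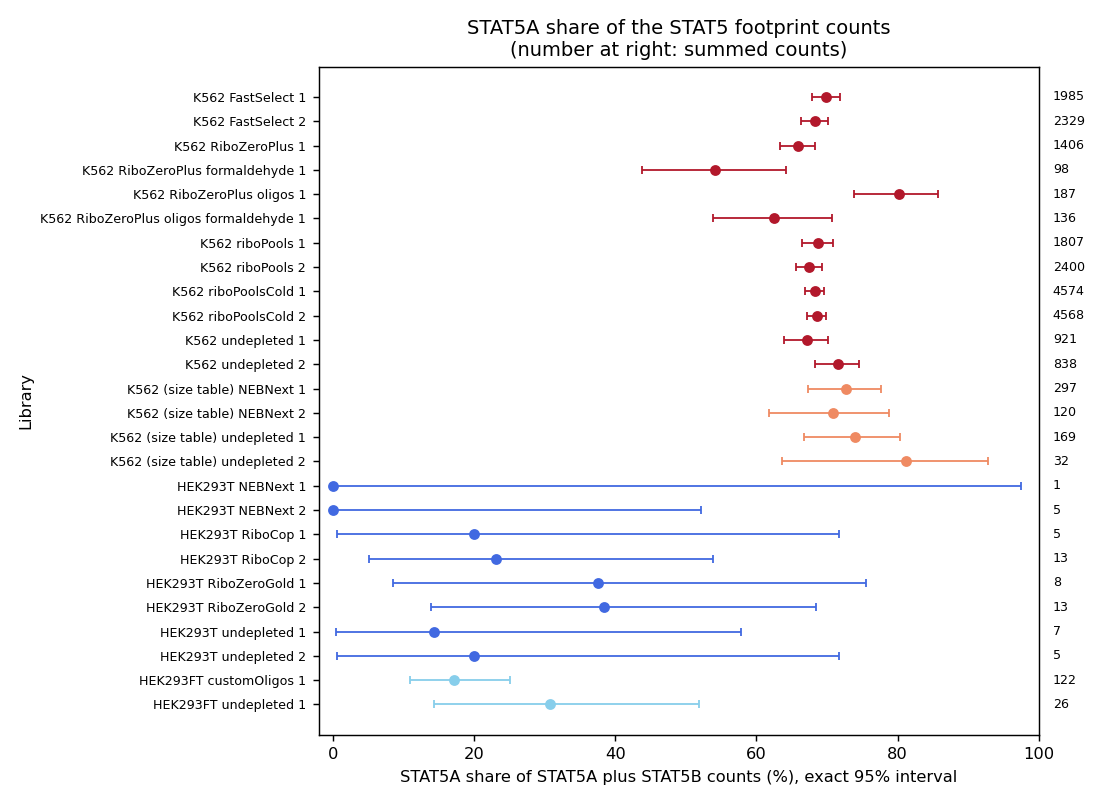
Share of STAT5A in the summed STAT5A and STAT5B counts (x axis, percent) for each of the 26 libraries (y axis), with exact 95% binomial intervals for counting error and the summed counts at the right. The K562 libraries lie between 54.1 and 81.2%, and the HEK libraries at or below 38.5% with wide intervals where counts are few.

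PIM1, a kinase that promotes survival and proliferation, lies at chr6:37170203-37175426 (ENST00000373509.5). It had 0 and 3 counts in undepleted HEK293T and 8 counts in HEK293FT (8.88 CPM). In K562 it stood at 306 and 271 CPM in the kit table and 300 and 320 CPM in the size table. The ratio of K562 to HEK293T counts was 26.4 (exact 95% interval 8.98 to 128) and that to HEK293FT was 32.6 (16.4 to 75.8). Both differences passed the test, at 4.80 ± 0.43 (adjusted p 3.36e-27) and 4.97 ± 0.28 on the log2 scale (adjusted p 6.77e-70). With 3 counts in HEK293T the first is loosely fixed, and it was 4.10 without HEK293T library 1 and 10.4 without library 2, which leaves 0 counts. Over all libraries PIM1 ranged from 254 to 401 CPM in K562 and from 0 to 20.7 CPM in the HEK lines.

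BCL2L1, whose main product BCL-XL holds back BAX and BAK, is read from the minus strand at chr20:31664452-31722898 (ENST00000307677.4). It had 1 count in each undepleted HEK293T library, 7 in HEK293FT (7.77 CPM), 73.1 and 82.4 CPM in K562 of the kit table, and 110 and 107 CPM in the size table. K562 was higher by 3.47 ± 0.66 than HEK293T (adjusted p 1.13e-06) and by 3.26 ± 0.40 than HEK293FT (adjusted p 1.45e-15) on the log2 scale. As ratios of counts these were 10.6 (2.89 to 88.2) and 9.97 (4.74 to 25.2). The 2 shallow Ribo-Zero Plus libraries with formaldehyde held its extremes in K562, 300 CPM (35 counts) with formaldehyde alone and 0 with oligos as well, where a count of 0 allows up to 18.2 CPM.

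LYN, the SRC-family kinase of the set, lies on chromosome 8 (chr8:55879813-56010572, ENST00000519728.5). Undepleted HEK293T libraries had 25.0 and 32.6 CPM (3 and 5 counts) and HEK293FT had 21.1 CPM. K562 had 82.8 and 90.1 CPM in the kit table and 89.4 and 107 CPM in the size table, so the lines did not overlap. LYN was 3.17-fold higher than in HEK293T (log2 1.66 ± 0.44, adjusted p 0.000713) and 4.01-fold higher than in HEK293FT (log2 2.003 ± 0.30, adjusted p 1.13e-10). In the size table the difference from HEK293T was 1.76 ± 0.57 (adjusted p 0.0103), and it missed the threshold with DESeq2 (adjusted p 0.0555), without either HEK293T library (0.0695 and 0.0560) and without the 20 to 34 nt K562 library (0.246).

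**Figure D3:**
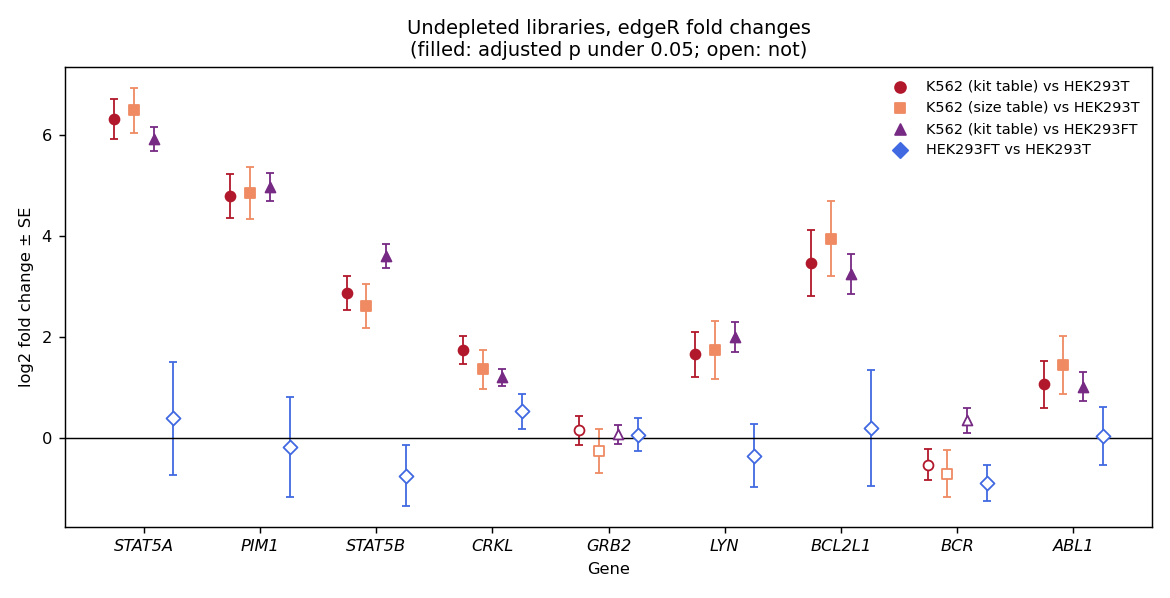
The log2 fold change ± SE (y axis) of 9 genes (x axis) in 4 comparisons of undepleted libraries by edgeR, filled where the adjusted p was under 0.05. STAT5A, PIM1, BCL2L1, STAT5B, CRKL, LYN and ABL1 lie above 0 in the 3 comparisons of K562 with a kidney line, and no gene passed the test between HEK293FT and HEK293T.

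Per kilobase of coding sequence, the order of the genes differed between the lines. In undepleted K562 of the kit table PIM1 (307 ± 25.8 CPM per kb, SD, n = 2), CRKL (263 ± 7.74) and STAT5A (236 ± 10.8) led, followed by GRB2 at 163 ± 5.97. BCL2L1 (111 ± 9.38) and STAT5B (106 ± 10.6) did not differ beyond their spread, LYN was at 56.3 ± 3.38, and GAB2 was lowest at 5.08 ± 2.27. In undepleted HEK293T GRB2 led with 158 ± 11.5 CPM per kb and CRKL followed with 82.3 ± 25.6. BCR came next there (28.7), LYN (18.7 ± 3.49) and STAT5B (16.1 ± 7.17) overlapped, as did BCL2L1, PIM1 and ABL1 near 10, and STAT5A had 3.12 ± 0.539.

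With all 26 libraries, whatever the depletion, STAT5A, STAT5B and PIM1 were higher in each K562 library than in each HEK library, a pattern shown by 5.04% of the 8892 genes whose mean count was 10 or more. Without the 3 shallow Ribo-Zero Plus libraries CRKL, BCL2L1 and LYN joined them, against 8.3% of 9112 genes. Among the undepleted libraries alone 8 of the 10 were so ordered, all but BCR and GRB2, where 19.1% of 6543 genes were. A further fit added the libraries depleted by kits that use no nuclease, as replicates of their group with no term for the kit. In it 9 of the 10 genes, all but BCR, were higher in K562 (kit table) than in HEK293T (34% of 10356 genes higher). Against HEK293FT 10 of 10 were (38.8% higher). Whether these preparations are independent is not labelled, so the added calls may rest on technical spread.

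HEK293FT and HEK293T were set side by side as lines without the fusion. None of the 9 genes passed the test between them by edgeR or DESeq2, and 420 of 5551 genes passed by edgeR (7.57%). At an unadjusted p under 0.05 edgeR gave 1 of the 9 (BCR), beside 990 of all 5551 genes. The largest differences were BCR, at -0.88 ± 0.35 (adjusted p 0.122), and STAT5B, at -0.73 ± 0.60 (adjusted p 0.588). PIM1 and BCL2L1 had standard errors of 0.99 and 1.14 there, so the depth of HEK293T could not show a difference of moderate size.

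Other genes of the pathway were read from lists. The JAK-STAT list held 9 testable genes of 14, and 5 were higher in K562 (kit table) than in HEK293T and none lower, where 22% of all genes were higher and 22.3% lower. The median log2 difference was 0.90 beside -0.01 over all genes tested, but PIM2, CISH and SOCS2 lay under the abundance filter in every undepleted HEK library and so could hardly be tested without differing. PIM2, a kinase related to PIM1, had 376 and 401 CPM in K562 of the kit table, 315 and 299 CPM in the size table, 33.3 and 32.6 CPM in HEK293T and 31.1 CPM in HEK293FT, a 12.7-fold difference from HEK293T (log2 3.66 ± 0.31, adjusted p 1.01e-30). CISH, a STAT5 target that dampens cytokine receptors, had 59 and 57 counts in K562 of the kit table, 10 and 3 in the size table, 0 and 1 in HEK293T and 4 in HEK293FT. Its ratio to HEK293T was 14.6 with an exact interval of 2.58 to 583 (log2 3.89, adjusted p 8.86e-05), and the fitted log2 difference was 7.97 without HEK293T library 2, which leaves 0 counts.

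SOCS2 and STAT3 were also among the 5 and are named after their values were seen. SOCS2, a further feedback regulator known to follow STAT5, had 30 and 22 counts in K562 of the kit table (26.4 and 21.3 CPM). The size table had 4 and 3 counts (21.0 and 64.0 CPM). The undepleted libraries of either kidney line had none (adjusted p 0.0196). Only the 64.0 CPM, in the shallowest library, reached the abundance filter of 52.56 CPM. SOCS2 therefore entered the test, against either kidney line, through 3 counts in that library alone. STAT3 differed by 1.38 ± 0.29 (adjusted p 1.01e-05). Against HEK293FT, where 29.3% of all genes were higher, 4 genes of the list were (SOCS2, PIM2, CISH and STAT3), and PIM3 was lower, by -1.84 ± 0.27 (adjusted p 9.25e-11). The receptor-associated kinases JAK1 and TYK2 passed in neither comparison by edgeR.

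In the adaptor and RAS-MAPK list 12 of 16 genes were testable, with 1 higher and 1 lower than in HEK293T (44.3% of all genes called) and a median log2 difference of 0.05. MAPK3, a kinase at the end of the MAPK cascade, was the lower one, with 41.4 and 31.0 CPM in K562 of the kit table, 26.3 and 0 CPM in the size table, 91.7 and 91.2 CPM in HEK293T and 92.1 CPM in HEK293FT. Its difference was -1.21 ± 0.37 (adjusted p 0.00393), and the call was lost without either HEK293T library (adjusted p 0.0802 and 0.141). MAPK3 reached the abundance filter in HEK libraries only, so it could hardly be tested without differing. Against HEK293FT 2 genes were higher and 4 lower (60.7% of all genes called).

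Few genes of the remaining lists had enough counts. In the PI3K-AKT list 3 of 12 were testable and none passed against HEK293T by edgeR, while 2 were higher and 1 lower against HEK293FT. In the BCL2 family 3 of 10 were testable and none passed against HEK293T, while 1, BAX, was lower against HEK293FT by -0.66 ± 0.23 (adjusted p 0.00928, named after its value was seen). Of the ABL and SRC family list 3 of 12 were testable, and BTK, a cytoplasmic tyrosine kinase of blood cells, was higher. It had 107 and 105 CPM in K562 of the kit table, 131 and 107 CPM in the size table, and a single count in the 3 undepleted HEK libraries together (log2 4.87, adjusted p 7.33e-11 against HEK293T). BTK reached the abundance filter in K562 libraries only, so it could hardly be tested without differing. Without HEK293T library 2, which holds that count, the fitted log2 difference of BTK was 8.95.

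**Figure D4:**
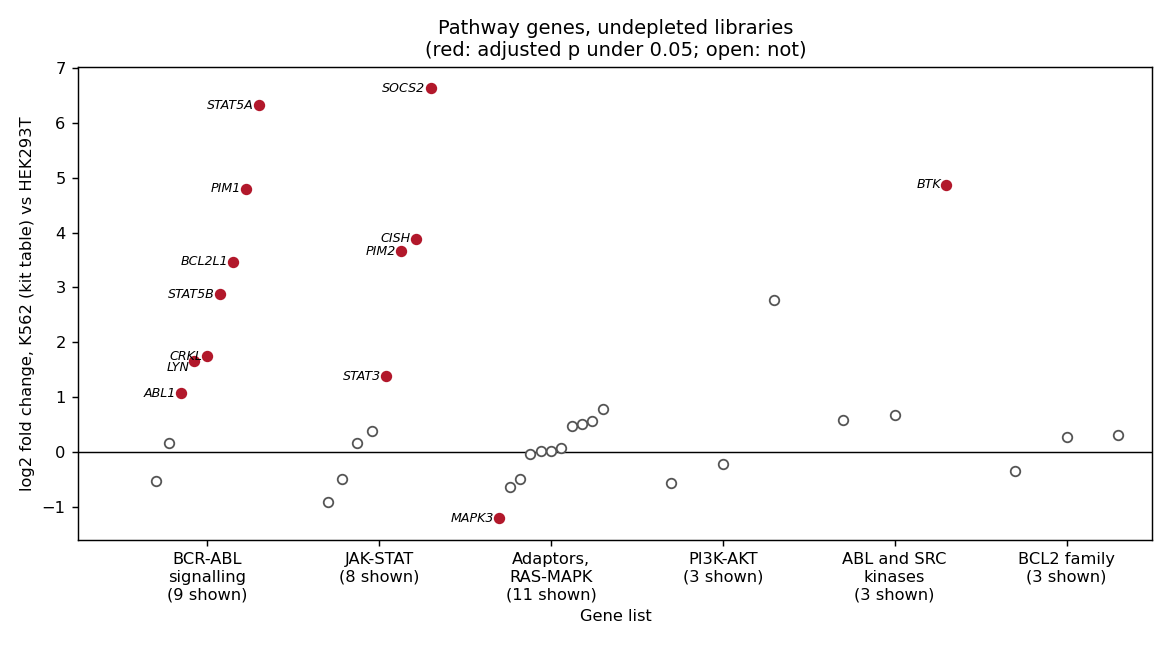
The log2 fold change of K562 (kit table) over HEK293T, undepleted (y axis), for tested genes of 6 lists (x axis, with the number shown), red and named where the adjusted p was under 0.05 and open where not. The red points of the JAK-STAT list all lie above 0, and MAPK3 lies below 0 in the adaptor and RAS-MAPK list.

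Genes near the fusion partners were read by side, since the fusion joins the 5′ side of BCR to the 3′ side of ABL1. On the 3′ side of ABL1, 2 of 12 genes within 1 Mb were testable and they went opposite ways. NUP214, a nuclear pore gene, starts 0.238 Mb beyond the 3′ end of ABL1. It had 836 and 810 CPM in K562 of the kit table and 710 and 683 CPM in the size table. HEK293T had 125 and 163 CPM and HEK293FT had 154 CPM. The difference from HEK293T was 6.08-fold (log2 2.60 ± 0.18). PRRC2B, at 0.486 Mb, had 33.5 and 38.8 CPM in K562 of the kit table, 158 and 97.7 CPM in HEK293T and 112 CPM in HEK293FT, a log2 difference of -1.67 ± 0.33. On the 5′ side of ABL1, 2 of 7 testable genes were higher than in HEK293T and none lower (22% of all genes higher). Among them was USP20, a deubiquitinase (2.94 ± 0.46). USP20 reached the abundance filter in K562 libraries only and PRRC2B in HEK libraries only, so each could hardly be tested without differing. Against HEK293FT 4 of these 7 were higher and 3 lower (60.7% of all genes called).

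On the 5′ side of BCR the 1 testable gene of 9, PRAME, a tumour antigen, had 2166 and 2151 CPM in K562 of the kit table against 108 and 78.2 CPM in HEK293T and 75.5 CPM in HEK293FT (log2 4.67 ± 0.16). On the 3′ side of BCR 7 of 20 genes were testable, and 5 were lower than in HEK293T and none higher (22.3% of all genes lower). Against HEK293FT 7 of the 7 were lower, where 1738 of all 5551 genes tested were. MIF, a cytokine gene, had 867 and 893 CPM in HEK293T and was lower, at 203 and 188 CPM, in K562 of the kit table (log2 -2.06 ± 0.14). AP000350.4 (-2.18 ± 0.22) shares 196 coding nt with MIF, or 31.26% of its own coding sequence, so its counts are uncertain. BCR itself, between these sides, did not pass the test, as given above. Copy number was not measured, and its part was not tested.

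**Figure D5:**
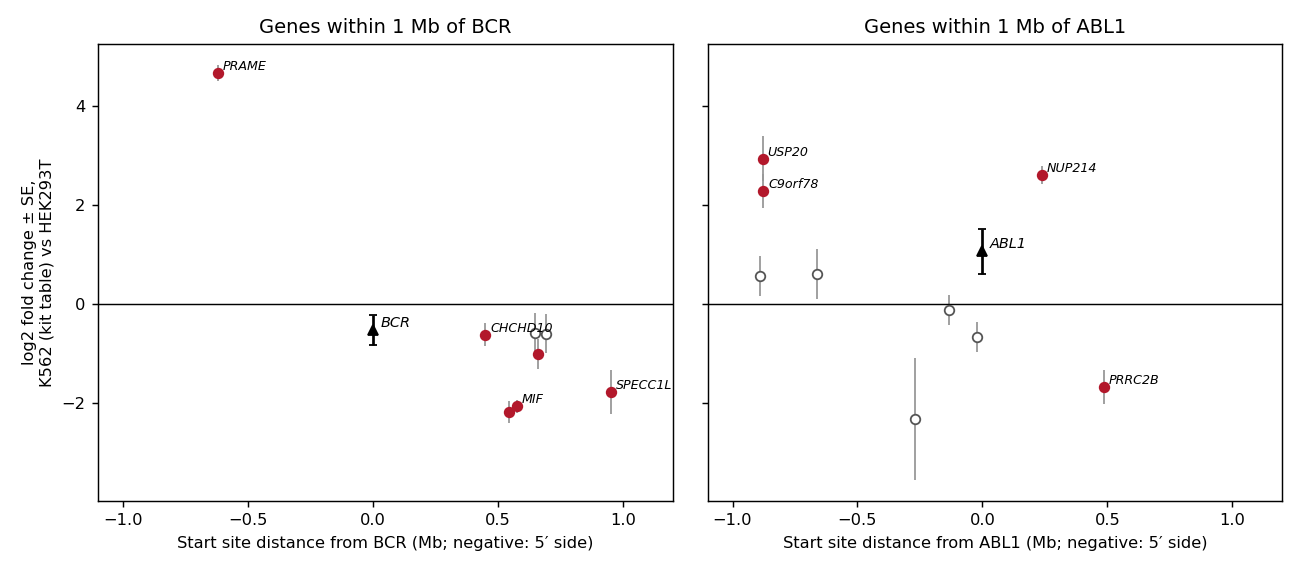
Log2 fold change ± SE (y axis), K562 (kit table) over HEK293T, undepleted, for tested genes within 1 Mb of BCR (left) and ABL1 (right). The x axis gives the distance in Mb of each start site from the nearer end of BCR or ABL1, negative on the 5′ side. Points are red where the adjusted p was under 0.05 by edgeR and open where not, with BCR and ABL1 as black triangles. PRAME lies at 4.67 on the 5′ side of BCR, 7 genes on its 3′ side lie below 0, 5 of them red, and NUP214 lies at 2.60 on the 3′ side of ABL1.

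The promoters of 9 of the 10 genes were matched by symbol in the RefSeq promoter table (250 bases before to 50 after the start, GRCh38). The STAT motif TTCNNNGAA, which reads the same on both strands, was in none of the 9, and in 7.66% of all 35116 promoters of this length. This says only that these letters are not in these windows.

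Depletion was compared within each line. In HEK293T only BCR, CRKL and GRB2 had enough counts, and none passed by edgeR or DESeq2 with NEBNext (3.24% of 4410 genes called), Ribo-Zero Gold (0.068%) or RiboCop (0%). Their log2 differences from undepleted lay between -0.75 and 0.14, with standard errors of 0.32 to 0.49, and 1 (BCR with Ribo-Zero Gold) had an unadjusted p under 0.05 by edgeR. With NEBNext in K562 none of 9 passed by edgeR or DESeq2 (2.72% of 3715 genes called by edgeR), and none had an unadjusted p under 0.05. In the K562 kit table all 10 were testable, and none passed by edgeR or DESeq2 with FastSelect (0.0197% of 10142 genes by edgeR), riboPools (0.0887%) or cold-eluted riboPools (0.237%). At an unadjusted p under 0.05 edgeR gave 0, 2 and 2 of the 10. The share of all genes at an unadjusted p under 0.05 is not given here for any kit. The counts at that threshold are therefore no result about the described genes.

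PIM1 was the 1 gene that passed with plain Ribo-Zero Plus, at 373 CPM beside 306 and 271 CPM undepleted, or 0.39 ± 0.08 on the log2 scale (adjusted p 0.000228), where 20.4% of genes were called and 8.99% were higher. DESeq2 did not call it (adjusted p 0.331). BCL2L1 had 87.4 to 101 CPM in the 7 FastSelect, riboPools and plain Ribo-Zero Plus libraries and 73.1 and 82.4 CPM in the undepleted ones. These did not overlap, but the share of all genes so ordered was not computed, so the order is no result about BCL2L1. No kit passed the test for this gene, with adjusted p from 0.0569 (plain Ribo-Zero Plus) to 0.919 (FastSelect). The 4 comparisons share the undepleted libraries. In HEK293FT the ratios of custom oligos to undepleted had intervals that include 1 for all 10 genes, and STAT5A, at 3.65 against 8.88 CPM, had a ratio of 0.411 with an interval of 0.175 to 1.07.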

How the data were processed

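The authors deposited whole-number counts per coding sequence for 4 experiments, per the file headers, and RPM values for the same rows, which equal each count over its library total (CPM here), so only counts were used. The submitters' processing notes name CASAVA 1.8, STAR and GRCh38. Read filters and the treatment of reads that match several genes are not given in the sources used here. Libraries were grouped by title and library totals are those of the tables.

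The test was the quasi-likelihood test of edgeR 4.0.16 in R 4.3.3, with TMM, filterByExpr by group and Benjamini-Hochberg adjustment over all genes at 0.05. The 7 undepleted libraries entered 1 fit with a term for group and none for size, so both size-table libraries counted as replicates. Kits were compared within tables, with size as a term in the K562 size table and each Ribo-Zero Plus library as its own group. The SE of a log2 fold change is its size divided by the square root of F. Fold changes of genes with 1 to 3 counts in a group depend on the prior count, so ratios of summed counts with exact conditional 95% intervals are given. Intervals and floors (3 counts) cover counting error only, since PCR copies are not independent molecules. DESeq2 1.42.0, other scalings, filters and left-out libraries were alternatives.

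Replicate pairs had a chi-square per degree of freedom of 1.027 to 1.205. On simulated data 200 of 5551 genes were changed. For K562 (kit table) against HEK293T 42% of 2-fold and 75% of 4-fold changes were recovered, with 4.88% of calls false. Against HEK293FT 69% and 92% were recovered. Every simulated gene had the same small spread beyond counting error (dispersion 0.000216). Far fewer genes were changed than the 44.3% called in the data, so these rates do not measure the errors of the real calls.

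Positions and lengths come from GENCODE release 29 (GRCh38), which held 97.51% of the transcripts and may not be the authors' annotation. All 10 genes are named. From each list, and near BCR and ABL1, up to 2 largest rises and 2 largest falls are named, where the test was passed, counts averaged 10 or more and there was no overlap between K562 and HEK undepleted libraries. The genes and lists were chosen with earlier results of these data known. Some genes that these rules select, and some list members, are not reported here.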

Additional observations from a re-analysis of the deposited data

How the results depend on the processing

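Of the values of single genes under the alternatives, 761 between cell lines stayed on their side of the threshold, 22 lost the call and 9 gained it, and for kits 416 stayed and 1 was lost. No called value changed sign, while values that had not passed did in places, as GRB2 in the size table against HEK293T (-0.34 to 0.37 with 1 library left out). ABL1 lost its call in 13 alternatives, all for K562 against a kidney line, LYN in 5, MAPK3 in 2, and CRKL and STAT5B in 1 each. The 66 alternatives of ABL1, and the 761 and 416 values that stayed, include comparisons in which the gene was not called. No call could be lost there. DESeq2 gave no adjusted p for 24 values, which were left out. Total count scaling shifted the median of all genes by -0.16 on the log2 scale for K562 against HEK293T in both tables, and the kit-table split became 1000 higher and 1488 lower in place of 1222 and 1239, with 6 of the described genes higher.

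Genes called for K562 (kit table) against HEK293T numbered 2461, 1637 by DESeq2, 7113 with the libraries depleted without a nuclease added and 7664 with only those, a choice made after seeing the data. For the size table against HEK293T 1617 became 1050 by DESeq2 and 2987 with added libraries. For K562 (kit table) against HEK293FT 3367 became 1734 by DESeq2, 5234 with no filter, 8383 with added libraries and 9447 with only those. For HEK293FT against HEK293T 420 became 170 by DESeq2, 2314 with added libraries (2 described genes called, CRKL and BCR) and 2142 with only those (1, CRKL). Between kit-table and size-table K562 the count of 16 became 9 with no filter and 67 with added libraries. DESeq2 called 0 described genes for plain Ribo-Zero Plus in place of 1.

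With added libraries the additional calls, given above, were GAB2 (2.21 ± 0.51 and 3.87 ± 0.38), GRB2 (0.36 ± 0.12 and 0.23 ± 0.08) and, against HEK293FT, BCR (0.42 ± 0.10). These calls, and the gene counts with added libraries, rest on counting libraries of different kits as replicates. Without both libraries of the size table, also chosen after seeing the data, the kit table had 7 and 8 called. With NEBNext libraries in place of undepleted ones, 5 of 8 tested were higher in the size table. The share of all genes called in these settings is not given here, so these counts are no result about the described genes as a set.

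Leaving out 1 library in turn gave 1877 to 3376 genes (kit table against HEK293T, 6 to 7 described genes), 528 to 1669 (size table against HEK293T, 3 to 7, the lowest without the 20 to 34 nt library), 2635 to 4860 (kit table against HEK293FT, 7), 173 to 417 (HEK293FT against HEK293T, 0) and 3 to 16 (between K562 tables, 0). A group left with 1 library was assumed to vary like the others. For NEBNext in K562 this could not be fitted and was not run.

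Shared replicate numbers were not taken as pairs, since not every correlation of deviations exceeded 0.1: they were 0.0646 to 0.136 in HEK293T (4 of 6 above 0.1), -0.0491 to 0.0203 in the K562 kit table and -0.00118 between lines. With the replicate block, the libraries of both groups alone gave 2818 genes and 7 described genes for K562 (kit table) against HEK293T, against 2853 and 7 without it, and in kit comparisons the block gave 0 described genes called in each of the 6 fitted. Depth limits GAB2 in the undepleted libraries and STAT5A, PIM1 and BCL2L1 in HEK293T, where they had 1 to 3 counts in all.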
